A study of Homo sapiens with 10 samples.

Results

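The labelled share of an RNA is the part of its reads that carried the mark of 4-thiouridine after human K562 cells had been kept in that nucleoside for 12 h. It was computed for each gene of a single library, taken at 0 h of the chase, as labelled reads divided by total reads. Genes with a total of at least 50 reads in that library were kept, which gave 9448 of the 59204 genes listed, and these held 99.1% of its reads. Of the genes listed, 19284 had at least 1 read at 0 h.

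K562 is an established line from a chronic myeloid leukaemia with erythroid features. All libraries come from unmodified K562 cells that received 30 µM 4-thiouridine for 12 h with a medium exchange every 3 h, and those harvested at 0 h had no drug and no chase. Cells for the other libraries were washed and moved to 3 mM uridine for 2, 4 or 8 h with DMSO, with 1 µM JQ1 (a BET bromodomain inhibitor) or with 1 µM AZ-5576 (an inhibitor of the elongation kinase CDK9), and fly S2 RNA was added at 5% as a spike-in. Each condition has 1 library, so every value below is a description with no replicate check and no test. The JQ1 libraries were not used.

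4-thiouridine is taken up by cells and built into RNA in place of uridine while transcription goes on. Iodoacetamide treatment of the RNA makes reverse transcriptase read it as C, so a T-to-C change in a read marks a molecule made during the pulse. RNAs that are made and degraded quickly turn over their whole pool during a long pulse, whereas an RNA that is never degraded still gains labelled copies as cells grow and divide. A read can show the mark only at its T positions, and a new molecule whose read holds no converted T counts as unlabelled, so a labelled share is not itself the share of molecules that were replaced.

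The 0 h library held 12099803 human reads, of which 3868420 (32.0%, interval 31.9 to 32.0%) were labelled. The 9 later libraries held 10293371 to 16008906 human reads. Intervals below are 95% Clopper-Pearson intervals, which are exact for counting error but for nothing else, as the reads carry no molecular identifiers and copies of 1 molecule count separately. The median interval was 22.5 percentage points wide for genes with 50 to 99 reads and 5.40 points wide for genes with 500 or more. All 12 markers of K562 identity were present with 145 to 69022 reads, 153483 in sum. Of 17 markers of other cell types, 6 (CD3E, MS4A1, MPO, VWF, KRT5 and APOA1) were at 0, and 5 reached 50 reads (KRT8, VIM, EPCAM, LYZ and PTPRC). All 17 together held 5635 reads. No library without 4-thiouridine was analysed here, so the rate of T-to-C reads in unlabelled RNA was not measured.

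The annotated 3′ ends below illustrate how T content differs between transcripts near the end from which the libraries start, though reads may cover other bases. They are the last 30 bases of the chosen GENCODE v29 transcript (GRCh38), 5′ to 3′, with T in capitals, the base at which a T-to-C change can appear. The first set holds the 4 protein-coding genes with the highest share and the second the 4 with the lowest, among those with at least 500 reads. The mitochondrial genome and MTRNR2L10, a copy of mitochondrial sequence, were left out of both sets. The third set holds the transcription factor genes KLF1 and LYL1, picked by name for a low share together with a quick loss of label in the chase. They do not stand for other genes with quick loss. All ends lie in the last exon, at chr4:4267701-4267730 (minus strand) for LYAR, chr9:89316674-89316703 (plus) for CKS2, chr6:143863783-143863812 (plus) for LTV1, chr7:151466012-151466041 (minus) for RHEB, chr16:88643283-88643312 (minus) for CYBA, chr11:57386794-57386823 (minus) for PRG2, chr3:52524387-52524416 (minus) for NT5DC2, chr19:18434388-18434417 (minus) for ISYNA1, chr19:12884422-12884451 (minus) for KLF1 and chr19:13099033-13099062 (minus) for LYL1.
LYAR: aTaaaaTaTaTTcTggTccaaacTTcTaaa
CKS2: TTgTTcaaTaaagTTTgTaTgTTgcaTTTa
LTV1: aaTTaaaggaaaaTaTcTTcaTaacgTgaa
RHEB: TTTaTTaaTaaaaTaTagTTTTgcTTTgca
CYBA: gcaaTaaaTgcagcgaagccgggagcgcgT
PRG2: TccTTccTacTcTcTgcaacTcccaaaTaa
NT5DC2: agacaagcaaTaaaagTggTcTccTcccTg
ISYNA1: ccTTgcgTTTTTaaTaaaaTggTaagagTc
KLF1: ggTccTaTaaaaaTgccccTcccagaTaaa
LYL1: gcaaagcaacaTggcagagcagTcaTagga

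Of the 9448 genes, 4991 (52.8%) had more than 50% of their reads labelled and 289 (3.06%) had less than 10%. The median labelled share was 51.6%, with quartiles of 34.8% and 63.6% and 10th and 90th percentiles of 19.1% and 71.7%. The interval lay wholly above 50% for 3772 genes and wholly below 10% for 170. Genes over 50% held only 23.5% of the reads of all members, and genes under 10% held 11.9%. Of the 1663 most read protein-coding genes, the top quintile, the median share was 41.7%, against 54.0% for the least read. No read was labelled for 13 genes, with AC027237.1 the most read of them (0 of 198, where 3 labelled reads would make 1.52%), and every read was labelled for the pseudogenes RPL31P39 and RPL23AP91. At the edge of the minimum, the 54 genes with a total of exactly 50 reads had a median share of 49% and the 40 genes with 49 reads had 53.1%.

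Mitosis genes had the highest median share of the 35 gene lists compared at a minimum of 50 reads. At 500 reads their median was 66.5%, below the 70.2% of 5 G1 cyclins and CDK inhibitors. The 45 measured mitosis genes had a median of 69.3%, with 40 over 50% and none under 10%. BUB1B, a spindle checkpoint kinase, had 256 of 291 reads labelled (88.0%, interval 83.7 to 91.5%), and ANLN, which builds the cytokinetic ring, had 205 of 236 (86.9%). CENPF, a kinetochore protein, and CKS2, a cofactor of cyclin-dependent kinases, had 630 of 783 (80.5%) and 940 of 1132 (83.0%). The cyclin CCNB1 had 1569 of 2361 (66.5%) and the kinase PLK1 had 3548 of 4804 (73.9%). At the other end of this list stood FOXM1, a transcription factor for mitotic genes, with 161 of 434 (37.1%), and the phosphatase CDC25B with 69 of 177 (39.0%). Mitosis RNAs were not among those that lost label fastest later: their labelled reads per fly read at 8 h over 2 h of the DMSO chase had a median log2 ratio of -1.58, against -1.66 over all 9448 genes. DNA replication genes had a median share of 49%, with 23 of 47 over 50%. RFC3, a clamp loader subunit, led them at 143 of 191 (74.9%), and POLD1, the catalytic subunit of polymerase delta, was lowest at 33 of 269 (12.3%).

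Immediate-early and feedback regulators, whose RNAs are textbook examples of rapid decay, had a median share of 65.2%, with 36 of 42 measured members over 50%. Of the other 28 members of that list, each had under 50 reads. SPRY4, an inhibitor of receptor signalling, had 44 of 50 reads labelled (88.0%, interval 75.7 to 95.5%) and the kinase PLK3 had 67 of 81 (82.7%). MCL1, an anti-apoptotic BCL2 relative, had 973 of 1387 (70.2%, interval 67.7 to 72.6%), and MYC had 260 of 350 (74.3%, interval 69.4 to 78.8%). The median log2 chase ratio of labelled reads in DMSO was -2.97 for this list, and all 42 members lost more than 2-fold, as did 78.2% of all genes. The lowest shares were those of CSRNP1 (30 of 104, 28.8%) and CCND3, a D-type cyclin (484 of 1263, 38.3%). For IER2, whose share was 51.7% (718 of 1389), the log2 chase ratio was -3.36, and for JUND, at 57.9% (978 of 1688), it was -4.86. Such shares lay below those of mitosis RNAs that lost their label far more slowly, such as PLK1, whose ratio was -0.95. PLK1 was slower than the mitosis list, whose median ratio was -1.58, and CCNB1 had -2.33.

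Genes of the integrated stress response, the programme run by the factor ATF4 when translation initiation is restrained, had a median share of 62.8%, with 19 of 23 over 50%. STC2 (99 of 127, 78.0%) and MTHFD2, a mitochondrial folate enzyme (1016 of 1305, 77.9%), were highest. The amino acid enzymes ASNS (378 of 1486, 25.4%) and PHGDH (57 of 192, 29.7%) were lowest. TXNIP, a regulator of thioredoxin and glucose uptake, had 883 of 1224 (72.1%), and ATF4 had 4441 of 8127 (54.6%). Among heat shock chaperones the inducible HSPA1B (692 of 921, 75.1%) and HSPA1A (2665 of 3744, 71.2%) led, and the counts of these near-identical copies are uncertain, as either could hold reads of the other. The small heat shock protein gene HSPB1 (5699 of 32737, 17.4%) and the chaperonin subunit CCT7 (1302 of 5792, 22.5%) were lowest in that list, whose median was 55.2%.

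Erythroid and leukaemia transcription factor RNAs spread widely, with a median share of 52.3% and 16 of 31 over 50%. ELF1, an ETS factor, had 134 of 169 reads labelled (79.3%) and CBFB, the partner of RUNX factors, had 650 of 822 (79.1%). TAL1 had 916 of 1672 (54.8%), MYB had 824 of 1333 (61.8%), GATA1 had 497 of 1422 (35.0%) and GATA2 had 548 of 1639 (33.4%). KLF1, the erythroid Krüppel-like factor, had 329 of 823 (interval 36.6 to 43.4%), and LYL1, a relative of TAL1, had 385 of 1751 (22.0%). SPI1 was lowest at 11 of 105 (10.5%). KLF1 and LYL1 were below the all-gene median in share although their label was almost gone 8 h later. The share of KLF1 reads that were labelled was 33.3%, 9.51% and 1.15% at 2, 4 and 8 h in DMSO, and its log2 chase ratio was -4.15. For LYL1 that ratio was -4.39. The last 100 bases of the chosen transcript hold 27% T for KLF1, 15% for LYL1, 23% for GATA1 and 41% for GATA2. The median over protein-coding genes was 33%. GATA2 thus had a low share with a T-rich end, and its log2 chase ratio was -3.13. The part of T content in these shares was not tested.

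Numbered zinc finger genes, mostly KRAB-type repressors, had a median share of 56.9%, with 153 of 231 over 50% and none under 10%. ZNF407 (51 of 60, 85.0%) and ZNF468 (131 of 160, 81.9%) were highest, and ZNF653 (8 of 72, 11.1%) and ZNF580 (15 of 126, 11.9%) lowest. Their median log2 chase ratio was -2.83, close to that of the immediate-early list. Many of these genes sit on chromosome 19, whose 633 protein-coding genes had the lowest median share of any chromosome (36.5%). On that chromosome the 92 zinc finger genes had a median of 54.3%, and the other 541 genes had 34.6%. The 139 zinc finger genes elsewhere had 58.2%. Median T content of the last 100 bases was 31% for the zinc finger genes of chromosome 19 and 26% for the other genes there.

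Genes of RNA metabolism lay around or above the overall median. Factors of mRNA decay had a median share of 58.5% (48 of 71 over 50%), led by LSM1, a subunit of the decapping-linked Lsm ring (1646 of 2014, 81.7%), and SMG8 of the nonsense-mediated decay kinase complex (256 of 318, 80.5%). EXOSC4, a subunit of the RNA exosome, was lowest (74 of 504, 14.7%), followed by UPF2 of nonsense-mediated decay (352 of 2330, 15.1%). Splicing regulators had 55.0% (25 of 40 over 50%), from HNRNPDL (3372 of 4297, 78.5%) and HNRNPR (1687 of 2207, 76.4%) down to HNRNPA1 (2061 of 6852, 30.1%) and SRSF9 (647 of 2227, 29.1%). RNAs for Pol II elongation factors and BET proteins had 55.7% (23 of 36 over 50%). In it the Mediator kinase CDK8 had 44 of 50 (88.0%) and HEXIM1, the inhibitor of P-TEFb, had 335 of 462 (72.5%). NELFE, a subunit of the pausing factor NELF, had 24.2%. Nucleolar and ribosome biogenesis genes had a median of 53.5% and ran from LYAR (742 of 875, 84.8%) to BOP1 (78 of 649, 12.0%).

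Metabolic lists differed in their medians. Sterol synthesis had a median share of 56.5% (15 of 24 over 50%). STARD4, a sterol carrier, had 149 of 191 (78.0%). FDPS (424 of 2135, 19.9%) and TM7SF2 (50 of 270, 18.5%) were lowest. Glycolysis had a median of 31.3% with a wide range between genes, and the 13 members in the middle 3 quintiles of T content had 56.3%, above the all-gene median. GAPDH had 3808 of 50897 (7.48%, interval 7.25 to 7.71%), and PKM, LDHA and ENO1 had 19.7%, 20.2% and 25.5%. The glucose carrier SLC2A1, the lactate carrier SLC16A1 and the regulatory kinase PFKFB3 had 61.9%, 70.3% and 75.0%. Antioxidant enzymes had a median of 25.7% (4 of 22 under 10%), with GPX4, which reduces lipid peroxides, at 219 of 4173 (5.25%) and GCLM, the modifier subunit of glutathione synthesis, highest (606 of 864, 70.1%). Haem synthesis ran from SLC25A39 (465 of 2940, 15.8%) to ALAS1 (94 of 115, 81.7%), with a median of 46.3%. Iron handling genes had 57.6%, with ACO1 (45 of 225, 20.0%) and the light chain of ferritin, FTL (14969 of 57835, 25.9%), lowest.

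Proteasome subunits had a median share of 37.4% (9 of 31 over 50%), from PSMC5 (505 of 2520, 20.0%) to PSMC2 (1954 of 2826, 69.1%). Translation factors had 43.9% (15 of 38 over 50%), with EEF1D (543 of 5145, 10.6%) lowest and EIF4H (2717 of 3539, 76.8%) highest. Aminoacyl-tRNA synthetases had 43.8%, and 3 of 20 were over 50%. The most read nuclear mRNA, EEF1A1, had 28403 of 105908 labelled (26.8%).

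Cytosolic ribosomal protein RNAs carried little label and lay close together. Their 80 measured members had a median share of 15.9% with quartiles of 11.8% and 20.5%. Without genes that have a pseudogene named after them, 3 remained, with a median of 25.4%. A single one, RPL36AL (1387 of 2459, 56.4%), was over 50%, and 13 were under 10%. RPL36 had 785 of 21070 (3.73%) and RPLP0 had 7846 of 52063 (15.1%). The list's median log2 chase ratio in DMSO was -0.66, and its median share moved little through the chase. Median shares were 15.9% at 0 h and 16.8%, 14.6% and 13.6% at 2, 4 and 8 h. RPL36AL, an intronless copy of RPL36A, differed from RPL36A on each measure. RPL36A had 675 of 3834 labelled (17.6%) and a log2 chase ratio of -0.43, and for RPL36AL that ratio was -2.65. Genes with near-identical copies, ribosomal proteins among them, have uncertain values, since a copy may have taken some of their reads.

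The nuclear genes of oxidative phosphorylation had a median share of 25%, with 7 of 78 over 50% and 7 under 10%. NDUFA13 (175 of 3933, 4.45%) and ATP5F1D (24 of 533, 4.50%) were lowest, and UQCRFS1, the Rieske protein of complex III (1211 of 1757, 68.9%), and NDUFB3 (607 of 855, 71.0%) highest. Mitochondrial ribosomal proteins are imported into the same organelle, yet their RNAs had a median of 48.6% with 34 of 76 over 50%. MRPS15 (705 of 5700, 12.4%) and MRPL50 (205 of 270, 75.9%) marked the ends of that range.

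Globin RNAs, the typical long-lived RNAs of erythroid cells, had a median share of 14.4%, with none of 8 over 50% and 4 under 10%. That median depended on the setting: it was 9.41% at a minimum of 100 reads, 30.0% by pooled reads, 35.2% for the 4 members in the middle 3 quintiles of T content, and 24.4% with the T group removed. The embryonic zeta globin HBZ had 592 of 13827 reads labelled (4.28%, interval 3.95 to 4.63%), HBA2 had 336 of 4851 (6.93%) and HBA1 had 342 of 3636 (9.41%). The fetal gamma globins HBG1 (22690 of 69022, 32.9%) and HBG2 (21159 of 56514, 37.4%) had higher shares with the same slow loss, at log2 chase ratios of -0.53 and -0.58, against -0.65 for HBZ. The chosen transcript ends hold 13% T for HBZ, 38% for HBG1 and 26% for HBG2, and these may not be the ends read in K562. Reads of HBG1 and HBG2, or of HBA1 and HBA2, may have been placed on the other copy. The list of erythroid surface and membrane skeleton genes, which also holds HEMGN, had a median of 45.1%. In that list the anion exchanger SLC4A1 was lowest at 2 of 86 (2.33%) and HEMGN highest at 105 of 145 (72.4%).

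**Figure D1:**
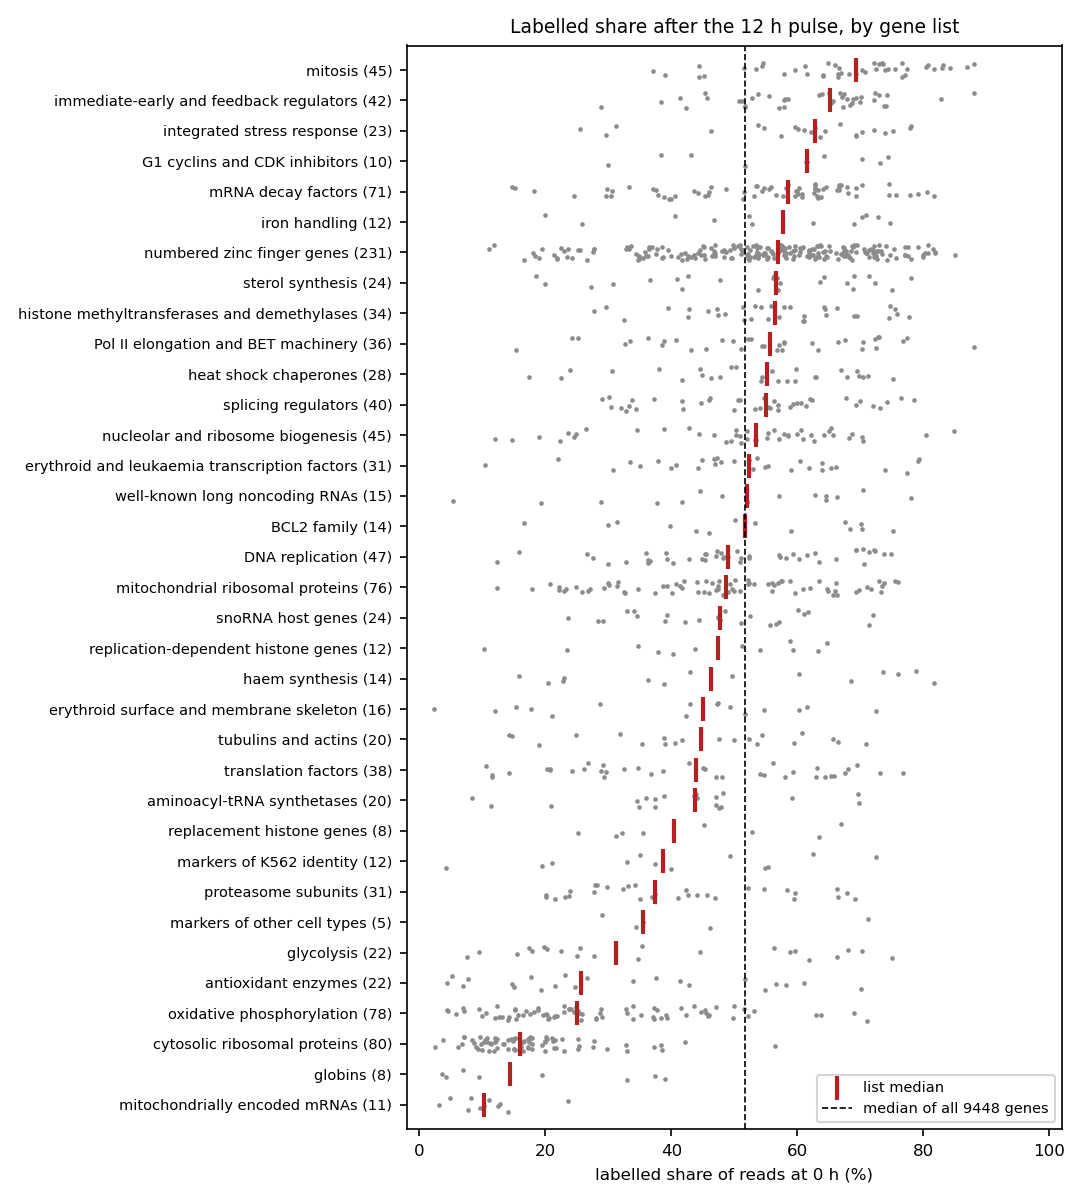
Labelled share of reads at 0 h (x axis, percent) for the members of 35 gene lists, 1 grey point per gene, with the list median as a red bar, the number of genes in brackets and the median of all 9448 genes as a dashed line. Mitosis (69.3%) and immediate-early genes (65.2%) stand at the top, and cytosolic ribosomal proteins (15.9%), globins (14.4%) and mitochondrially encoded mRNAs (10.2%) at the bottom.

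Mitochondrially encoded mRNAs, made by the organelle's own polymerase, had the lowest median share of the 35 lists at a minimum of 50 reads and lost that label quickly. At 100 reads their median was 9.89%, above the 9.41% of globins. Their median was 10.2%, with none of 11 over 50% and 5 under 10%. MT-ND2 had 13491 of 121909 reads labelled (11.1%), MT-CYB had 5166 of 50722 (10.2%) and MT-ND4 had 834 of 26376 (3.16%), whereas MT-ND1 had 735 of 3108 (23.6%). The share of MT-ND2 reads that were labelled was 4.03%, 1.38% and 0.228% at 2, 4 and 8 h in DMSO, and its log2 chase ratio was -4.24. The median ratio of the list was -3.68, the lowest of the 35 lists, while MT-CO1, with 12 labelled reads at 0 h, had 0.64. Total reads per fly read under AZ-5576 had a median log2 ratio of -0.30 at 8 h over 2 h for these mRNAs, against -1.13 over all genes. Transcript ends of the list hold a median of 28% T. The 12 mitochondrial tRNA genes had a median of 11.3%, and MT-TF, the most read gene of the library, had 39053 of 471387 labelled (8.28%). A 3′ library primed on poly(A) is not designed to read tRNAs, so reads placed there may belong to neighbouring or precursor RNA, which was not tested. Nuclear pseudogenes of mitochondrial origin, whose reads cannot be told apart from those of the organelle, had a median of 14.9% over 14 genes, with MTATP8P1 at 32669 of 137821 (23.7%).

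By annotated class, 8315 nuclear protein-coding genes had a median share of 52.6% and 416 long noncoding genes had 48.8%. Of the latter, 197 were over 50% and 12 under 10%. AL021807.1 (673 of 847, 79.5%) and ZNNT1 (179 of 220, 81.4%) were the highest among those with at least 200 reads, and H19 (11 of 204, 5.39%) and AC079801.1 (254 of 4207, 6.04%) the lowest. MALAT1, a nuclear RNA, had 3809 of 13221 (28.8%), NEAT1, the scaffold of paraspeckles, had 349 of 727 (48.0%), and NORAD had 1571 of 2502 (62.8%). The log2 chase ratio of MALAT1 was -1.56, against -1.66 over all genes. Host genes of small nucleolar RNAs had a median of 47.7%, from SNHG25 (1410 of 5973, 23.6%) to SNHG3 (5862 of 8150, 71.9%), with GAS5 at 8068 of 15785 (51.1%). The 535 processed pseudogenes had a median of 29.9%, with 70 under 10%, and their reads cannot be separated with certainty from those of the parent genes. Replication-dependent histone genes, whose main RNAs lack poly(A) tails and are thus poorly read by this method, had a median of 47.4% over 12 measured genes, with H1-2 at 696 of 6832 (10.2%) and H2AC11 at 90 of 139 (64.7%). The pooled share of their reads was 24.0%. No small nuclear, 7SK or 7SL RNA gene of 15 matched reached 50 reads.

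**Figure D2:**
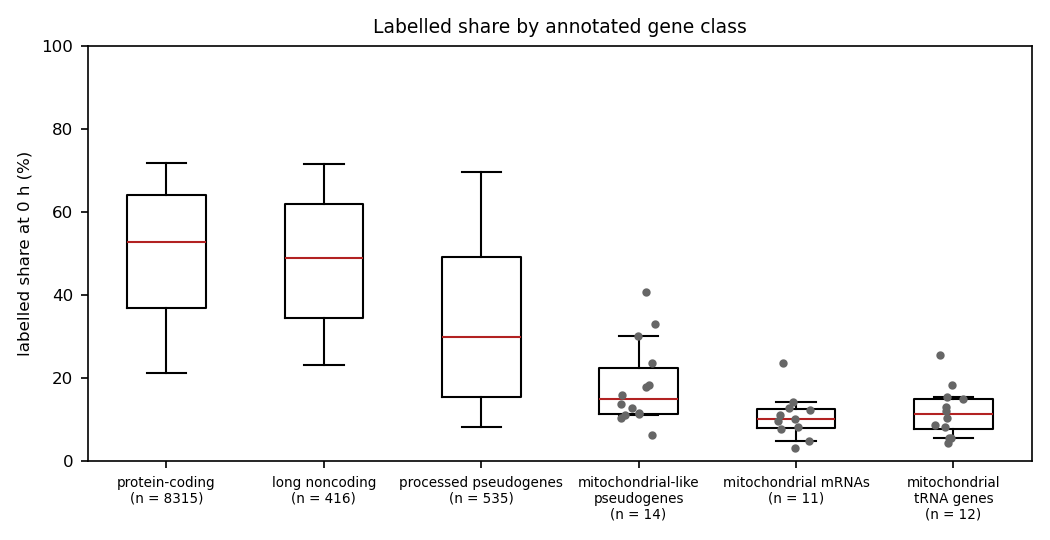
Labelled share at 0 h (y axis, percent) by annotated gene class. Boxes span the quartiles with the median in red, whiskers run from the 10th to the 90th percentile, points are single genes in classes of at most 20 genes, and the 3 classes on the right that stem from mitochondrial sequence have medians of 14.9%, 10.2% and 11.3%.

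Some close relatives differed in share. The pairs given here were chosen after their values were seen, so they say nothing of relatives in general. H3-3A and H3-3B encode the same histone variant, and their shares were 31.2% (2598 of 8332) and 67.0% (5613 of 8379). T content is 44% at the annotated end of H3-3A and 22% at that of H3-3B, and their log2 chase ratios were -0.75 and -1.61. The haem synthesis enzymes ALAS2 (erythroid form) and ALAS1 (housekeeping form) had 36.3% (269 of 742) and 81.7%, with chase ratios of -0.73 and -2.23. The hexokinases HK1 and HK2 had 34.7% (2267 of 6528) and 68.0% (121 of 178), with -1.02 and -1.74. The RNA helicases EIF4A1 and EIF4A2 had 42.8% (2129 of 4973) and 73.1% (1613 of 2207), with -1.58 and -2.48. Of the ferritin chains, FTH1 had 52.7% (8983 of 17030) and FTL 25.9%, at nearly equal ratios of -0.64 and -0.57. Their annotated ends hold 32% and 28% T, so the higher share went with the higher T here, unlike for the H3-3 pair. The part of T content in these differences was not tested. The share of FTH1 was still 48.5% after 8 h in DMSO.

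Across genes the labelled share followed the T content of the transcript end. Over 8314 protein-coding genes with a transcript, Spearman's rho between the share and the percent of T in the last 100 bases was 0.47 (Pearson's r 0.48), a correlation across genes of 1 library, which are not independent replicates. From the lowest to the highest quintile of T content, with median T of 22, 29, 34, 38 and 42%, the median share was 33.6, 48.6, 55.8, 60 and 62.1%. Of the 191 protein-coding genes under 10%, 147 were in the lowest quintile of T and 2 in the highest. The loss of labelled reads in the DMSO chase, a ratio within each gene, had a rho of 0.06 with T content. With the last 50 bases the rho of the share with T was 0.32, and with the last 200 it was 0.53. The chosen transcript may not be the one read in K562. AATAAA or ATTAAA, the common polyadenylation signals, lay in the last 50 bases of 78.7% of these transcripts, and rho was 0.48 among them.

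**Figure D3:**
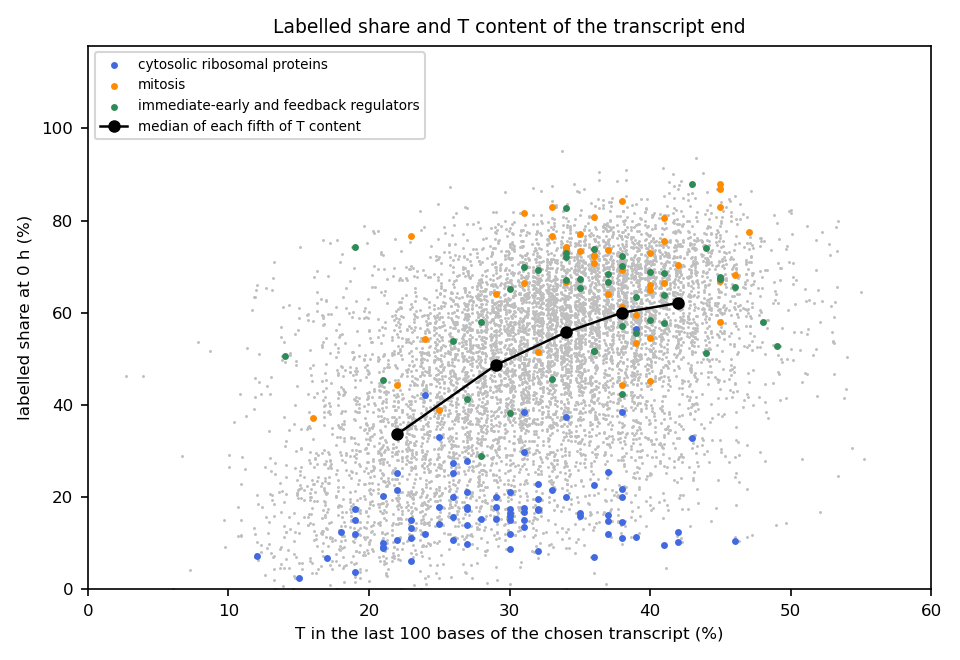
Labelled share at 0 h (y axis, percent) against T in the last 100 bases of the chosen transcript (x axis, percent) for protein-coding genes, 1 point per gene, with 3 gene lists in colour and the median of each quintile of T content in black. The black medians climb from 33.6% to 62.1%, while ribosomal protein genes stay low across the whole range of T.

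Gene lists differed in how far they stood from other genes of like T content. Ribosomal protein genes had median shares of 12.2, 17, 18.4, 16.1 and 10.4% in the quintiles of T from low to high, against 33.6 to 62.1% for all protein-coding genes. RPL37A, whose last 100 bases hold 42% T, had 3935 of 38384 reads labelled (10.3%). Oxidative phosphorylation genes climbed with T, from 15.2% in the lowest quintile to 38.4% in the highest, and stayed under all genes in each. Mitosis genes had 44.3% in the lowest quintile (5 genes) and 74.1% in the middle one (8 genes), and were above all genes in each. Translation factors came close to all genes in T-rich ends, with 58.0% against 60% in the fourth quintile and 61.8% against 62.1% in the highest. Proteasome genes were above all genes in the middle quintile, at 59.0% against 55.8%, and below them in the others. Zinc finger genes were below all genes in the highest quintile, at 59.5%, and above them in the others. Relative to the median of genes in the same of 20 T groups, 79 of 80 ribosomal protein genes, 71 of 78 oxidative phosphorylation genes, 24 of 31 proteasome genes and all 8 globins were below, and 37 of 45 mitosis genes and 149 of 231 zinc finger genes were above. The genes furthest below their T group among those with at least 500 reads were PRG2 (19 labelled of 1667 reads), FAM178B (316 of 9108, 3.47%) and RPLP1 (4325 of 45084, 9.59%). VPS72 (776 of 1025, 75.7%) and IDI1 (571 of 761, 75.0%) were among those furthest above. The last 30 bases of the transcripts chosen for VPS72, IDI1 and PRG2 hold no AATAAA or ATTAAA. Other ends of these genes may have been read, which was not tested.

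The extremes among protein-coding genes with at least 500 reads can be set beside their ends. CYBA, a subunit of the phagocyte NADPH oxidase, had 1 labelled read of 1315 (0.0760%, interval 0.00193 to 0.423%), and its last 30 bases hold 3 T. In the DMSO chase CYBA had 5 of 1180, 13 of 850 and 10 of 1209 reads labelled at 2, 4 and 8 h. These shares (0.424%, 1.53% and 0.827%) were higher than at 0 h, and the rate of T-to-C reads in unlabelled RNA was not measured. NT5DC2 (12 of 661, 1.82%) and ISYNA1, the enzyme that makes inositol phosphate (22 of 894, 2.46%), followed PRG2 among nuclear genes other than MTRNR2L10. LYAR, a nucleolar regulator, had 84.8% (interval 82.2 to 87.1%), CKS2 had 83.0%, LTV1, a factor for the small ribosomal subunit, had 82.9% (884 of 1066), and RHEB, the GTPase that activates mTORC1, had 82.7% (1908 of 2307). The ends of CKS2 and RHEB hold 15 T in 30 bases each, that of LYAR holds 10 and that of LTV1 holds 8. Those of ISYNA1, PRG2 and NT5DC2, at low share, hold 11, 9 and 6, so these counts overlap between the sets. CYBA and LYAR thus lie at both ends of the share with 13% and 42% T in their last 100 bases, and PRG2 is low with 37%.

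The chase offers measures that do not use the 0 h library. Over protein-coding genes, rho between the share and the log2 chase ratio of labelled reads in DMSO was -0.22 (Pearson's r -0.19), and -0.40 among the 2994 with at least 500 reads. With total reads under AZ-5576 at 8 h over 2 h, where CDK9 is inhibited and no label is needed, rho was -0.17 and -0.28. More than 2-fold less total RNA at 8 h was seen for 59.4% of all genes. These chase measures had a rho of 0.60 with each other, and 0.75 at 500 reads or more. After the median of its T group was taken from each share, rho with the DMSO ratio was -0.30 over all and -0.48 at 500 reads or more. By quintile of share from low to high the median log2 DMSO ratio was -1.20, -1.66, -1.80, -1.82 and -1.92, and the median AZ-5576 ratio was -0.995, -1.14, -1.20, -1.23 and -1.26. Most of the step lay between the lowest quintile and the next. Per human read in place of fly read, the AZ-5576 medians were -0.25, -0.39, -0.46, -0.48 and -0.52 in the same order.

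**Figure D4:**
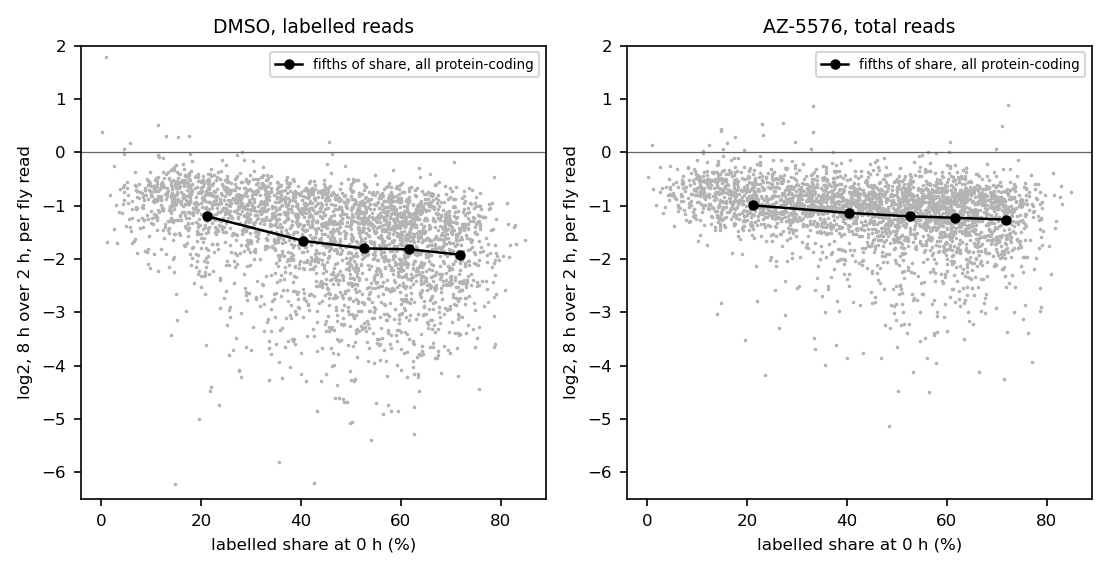
Change from 2 h to 8 h of the chase (y axis, log2 of reads per fly read) against the labelled share at 0 h (x axis, percent), for labelled reads in DMSO (left) and total reads in AZ-5576 (right). Grey points are protein-coding genes with at least 500 reads and black points the medians of the quintiles of share over all protein-coding genes, which run from -1.20 to -1.92 on the left and from -0.995 to -1.26 on the right.

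Low share and fast loss met in few genes. Among the 2994 genes with at least 500 reads, 599 were in the lowest quintile of share (at most 26.1%), and of these 278 were in the slowest quintile of chase loss and 27 in the fastest. The 27 had a median T content of 19% in the last 100 bases, against 28% for the 278. They include EXOSC4, GPATCH3 (103 of 529, 19.5%), THAP7 (202 of 860, 23.5%), ZNF787 (267 of 1225, 21.8%) and LYL1, with log2 chase ratios from -6.22 for EXOSC4 to -4.39 for LYL1. The EXOSC4 ratio rests on 1 labelled read at 8 h in DMSO, against 76 at 2 h. Among the 599 genes in the highest quintile of share, 179 were in the fastest quintile of loss and 38 in the slowest. The 38 had a median T content of 40.5%, against 35% for the 179 and 36% for all 599. If each gene's DMSO loss rate from 2 h to 8 h had held through the pulse and every new RNA had been seen, the share over genes with at least 500 reads would have had a median of 86.1% in the lowest quintile of T and 83.4% in the highest. The observed share of these genes was a median of 37.3% and 67.8% of that value.

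The order of genes by share was kept early in the chase and lost later. The share at 0 h had a rho of 0.73 with that at 2 h in DMSO, or 0.89 at 500 reads or more, and of 0.07 with that at 8 h. The median share of all genes was 51.6% at 0 h and 39.9%, 22.9% and 9.67% at 2, 4 and 8 h. Immediate-early genes went from 65.2% to 31.0%, 13.8% and 2.92%, and mitosis genes from 69.3% to 53.6%, 29.6% and 11.7%. Proteasome genes were at 37.4%, 37.7%, 27.5% and 18.1%, and oxidative phosphorylation genes at 25%, 26.7%, 22.1% and 17.6%. Ribosomal protein, globin, proteasome and oxidative phosphorylation genes, all below the all-gene median at 0 h, were above it at 8 h, whereas the mitochondrially encoded mRNAs were below it throughout, with 0.228% at 8 h.

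**Figure D5:**
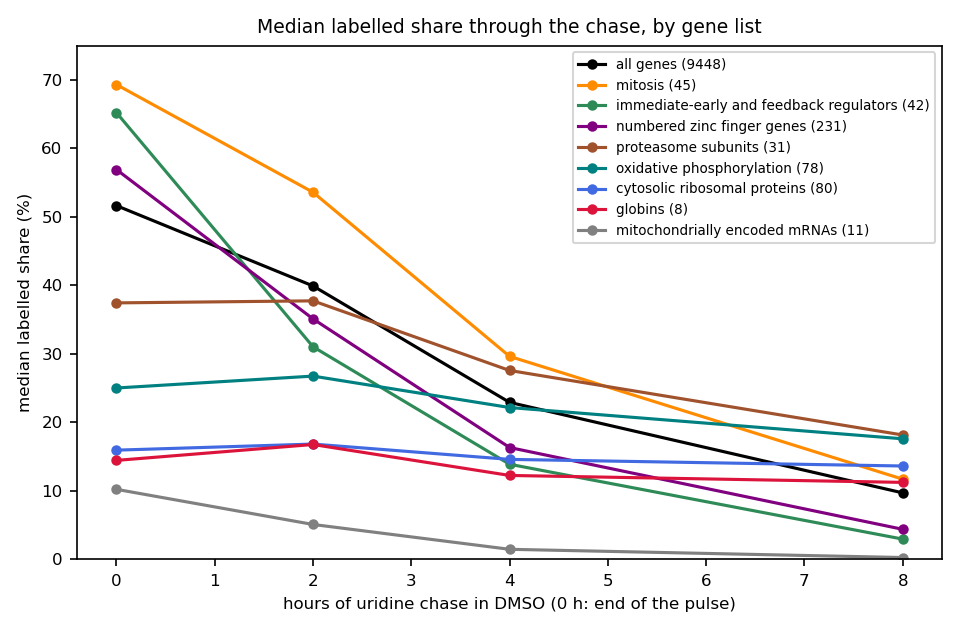
Median labelled share (y axis, percent) at 0 h and at 2, 4 and 8 h of the uridine chase in DMSO (x axis, hours), 1 line per gene list with the number of genes in brackets and 1 library per time. The line for immediate-early genes drops from 65.2% to 2.92%, that for cytosolic ribosomal proteins stays between 13.6% and 16.8%, and that for mitochondrially encoded mRNAs starts at 10.2%.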

How the data were processed

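RNA of 10 K562 libraries was read by 3′ end sequencing after iodoacetamide treatment (QuantSeq, forward kit), per the labels' protocols. The authors deposited raw read counts per gene in 3 tables, for all human reads, for reads named nascent (taken here as labelled) and for fly reads. Tools listed in the submitters' processing notes are Trim Galore 0.6.5, bedtools and bcl2fastq 2.17.1.14, and the builds listed are hg38 and dm6. The rule for a labelled read, the aligner, the counting tool, its strand setting and the annotation are not given in the sources used here. In every gene the labelled reads were no more than the total.

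Shares were computed at 0 h for genes with at least 50 reads (Python 3.11.15, pandas 2.3.3, scipy 1.17.1), with exact 95% Clopper-Pearson intervals. The intervals and rank steps were tested on simulated data. Chase ratios are log2 of reads per fly read with a pseudocount of 0.5. They are relative to RNA mass, not to cell number, since the spike-in was added to purified RNA. Gene classes, symbols and transcript ends come from GENCODE v29 (GRCh38), in which 9395 of the 9448 genes were found. T content is that of the last 100 bases of 1 transcript per gene, chosen by annotation tags and length. With 1 library per condition no test was made.

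The members and the gene lists were chosen with earlier results of these data known. Genes were named by rule: the 12 highest and 12 lowest protein-coding genes with 500 reads, the 6 highest and 6 lowest long noncoding genes with 200, the 2 highest and 2 lowest of each list, the 6 most read, and a fixed panel, of which BCR had too few reads (7 of 18 labelled). Examples from these are given. Other genes named were chosen after their values were seen. Alternatives were other read minimums, thresholds, pooled shares, scalings, chase intervals, pseudocounts and T windows. A few results that the rule would name are not reported here.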

Additional observations from a re-analysis of the deposited data

How the results depend on the processing

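With a minimum of 20, 100 or 500 reads, 5976, 4039 and 1426 genes were over 50% labelled (4991 as reported), and 442, 226 and 134 were under 10% (289 as reported). The limit of 60% gave 3095 genes, that of 40% gave 6439, and limits of 5% and 15% gave 98 and 619. By interval, 3772 genes were above 50% and 170 below 10%. The all-gene median was 45.9% at 500 reads, and the pooled share was 31.8%. Of 35 lists, 16 had a median above that of all genes, 14 to 20 under the other minimums, T content and pseudogene settings, and 28 by pooled reads, where the all-gene value is itself lower. In the middle 3 quintiles of T content 5 lists changed side (glycolysis, nucleolar genes, replication-dependent histones, long noncoding RNAs, histone methyltransferases and demethylases). With the T group removed 4 did (nucleolar genes, replication-dependent histones, splicing regulators, histone methyltransferases and demethylases), and by pooled reads 12 did. Of 9 classes 2 lay above, 4 at 500 reads and 4 by pooled reads. The rank correlation of the share with the DMSO ratio was -0.038 for 2 h to 4 h, -0.26 for 4 h to 8 h, -0.40 at 500 reads, -0.26 with a pseudocount of 5 and -0.30 with the T group removed. With the AZ-5576 ratio it was 0.018 for 2 h to 4 h, the opposite sign of the -0.17 reported, -0.27 for 4 h to 8 h, -0.28 at 500 reads and -0.22 with the T group removed. The cause was not tested. With T content it was 0.32, 0.53 and 0.53 for the last 50, 200 and 300 bases and 0.41 at 500 reads. Scaled by human reads, medians by quintile of share were -1.11, -1.58, -1.72, -1.73 and -1.83 in DMSO and -0.25, -0.39, -0.46, -0.48 and -0.52 under AZ-5576. The 300-base window, the polyadenylation signal filter, the 500-read minimum for T content and the T group settings were chosen after seeing the data. With 1 library per condition no library could be left out and no list call rests on a test. No paired analysis was possible because each condition has 1 library. At 50 to 99 reads a share is known to about 22.5 percentage points.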

Other observations

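Histone lysine methyltransferase and demethylase RNAs, which write and erase histone marks, had a median labelled share of 56.5%, with 24 of 34 over 50%. KDM6A, a demethylase of the Polycomb mark, had 132 of 170 reads labelled (77.6%) and SUV39H2 had 94 of 124 (75.8%), while KDM1A had 20 of 72 (27.8%) and DOT1L had 170 of 575 (29.6%). SUV39H1, which makes the same mark as SUV39H2, had 309 of 726 (42.6%) and a log2 chase ratio of -6.20, among the lowest of any gene named here. G1 cyclins and CDK inhibitors had a median of 61.5%, with 7 of 10 over 50%. Members of the BCL2 family ran from BAD (13 of 78, 16.7%) to BBC3, a pro-apoptotic BH3-only gene (225 of 299, 75.3%), with BCL2L1 at 370 of 806 (45.9%). Tubulin, actin and related genes ran from PFN1 (802 of 5637, 14.2%) to TUBG1 (1146 of 1615, 71.0%). TUBB4B, at 5660 of 11346 (49.9%), had a log2 chase ratio of -4.10, against -0.95 for TUBA1B, at 16246 of 51122 (31.8%).

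AU-rich and Pumilio-type motifs were searched on the transcript strand in the last 300 bases of 8314 protein-coding transcripts. TTATTTATT was found in 116 (1.40%), whose median share was 61.2% against 52.5% for the rest, with median T content of 36.5% and 33%. Their median log2 chase ratios were -1.75 and -1.68. TGTANATA was found in 820 (9.86%), with a median share of 60.3% against 51.5%, median T content of 36% and 32%, and chase ratios of -1.89 and -1.66. ATTTA, which TTATTTATT contains, was found in 44.6%, with a median share of 58.3% against 46.9% and median T content of 35% and 30%. Its chase ratios were nearly equal, at -1.68 with the motif and -1.69 without. Motif-bearing ends are also richer in T, and the part of that in the shares was not tested. Of 40 immediate-early genes searched, 2 held TTATTTATT, shown here in capitals within 30 bases, at chr12:93576611-93576640 (plus strand) for SOCS2 and chr1:44805900-44805929 (plus) for PLK3 on GRCh38.
SOCS2: agtccagacaTTATTTATTttatggcttta
PLK3: tggaccacttTTATTTATTgtcagacactt

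The share was higher for genes with a longer chosen transcript (rho 0.30 over protein-coding genes) and was lower for genes with more reads (rho -0.17). By chromosome, medians ran from 36.5% on chromosome 19 (median T content 27%) to 62.1% on chromosome 18 (35.5%).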
